A study of Hydra vulgaris with 12 samples.

Results

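A set of 118 predicted mRNAs of Hydra reached their highest level 12 h after the head was cut off, out of 16988 predicted mRNAs in a table of 17353 transcripts. They were chosen on the measured values. Each of the 12 libraries was first scaled so that its median over the predicted mRNAs with at least 1 RPKM in every library was 20. RPKM is the number of reads per length of transcript and per depth of the library, and values on this common scale are called scaled RPKM here. A transcript entered the set when its mean log2(scaled RPKM + 1) at 12 h lay at least 0.6 above that of every other time and both 12 h libraries lay above the 10 others. Transcripts that had already stepped up by 1 or more on the log2 scale at both 4 and 6 h, over 0 and 2 h, were left out, which removed 24 of the 142 that met the first conditions.

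Hydra is a freshwater polyp with a head of mouth and tentacles at one end of a tubular body and a foot at the other. Tissue of the body column rebuilds a head when the head is removed: the wound closes, the tip of the stump takes on the properties of a head organizer, the signalling centre that patterns the upper body, and tentacles and a mouth form later. Wnt ligands, secreted proteins that act through beta-catenin, are central signals of this organizer.

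Animals of strain 105 of Hydra magnipapillata, deposited under the organism name Hydra vulgaris, had been without food for 1 day and carried a young bud. They were bisected below the uppermost region of the trunk, and the regenerating tissue of the next regions, R2 and R3, was taken at 0, 2, 4, 6, 12 or 48 h. Each time has 2 libraries, each from a pool of 50 to 100 animals. Intact animals of matched age or keeping are not analysed here. An effect of the cut therefore cannot be told apart from one of the hours of keeping. RNA came from whole tissue, so a change in the number of cells of a type and a change in RNA per cell cannot be told apart either. The sources used here do not say whether both pools of a time were collected together, and the tests rest on the spread between these pools.

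None of the 118 identifiers is paired with a gene name in the table or in the RefSeq gene list of the HydraT2T_AEP assembly. Lists of 15 pathways and cell types, among them Wnt signalling, nematocytes, neurons and gland cells, could therefore not be applied, and the tissue label could not be checked against markers. What the encoded proteins do is not known from the sources used here. Members are described by level and time course, and 6 are named by their RefSeq identifier.

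The 118 transcripts together made up a small part of the RNA and gained their largest share at 12 h. Their summed level was 3143 and 3034 scaled RPKM in the 0 h libraries, 3858 and 3996 at 2 h, 5189 and 5390 at 4 h, 4528 and 4975 at 6 h, 13218 and 11804 at 12 h, and 5985 and 5308 at 48 h. In shares of all RPKM, the 0 h libraries held 0.321% and 0.307%, the 12 h libraries 0.988% and 0.921%, and the 48 h libraries 0.489% and 0.405%. The sum at 12 h was 4.05 times that at 0 h, 2.63 times that at 6 h and 2.22 times that at 48 h. These ratios describe what the choice of members fixed and are not tested. The 5 most abundant members held 54.7% and 49.7% of the sum in the 12 h libraries. Without them the ratio of 12 h to 0 h was 3.08.

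The middle of the set also stood highest at 12 h, by the choice of members. Unlike the sum, it was near its 0 h level at 48 h and was not lower at 6 h than at 4 h. The median member stood at 3.93 and 3.23 scaled RPKM in the 0 h libraries, 4.89 and 4.88 at 4 h, 5.09 and 4.95 at 6 h, 14.3 and 15.7 at 12 h, and 4.37 and 3.11 at 48 h. Over the 14283 transcripts with at least 1 RPKM in 2 or more libraries, the median of the log2 means for 0, 12 and 48 h was 3.93, 3.93 and 3.88. The members' median on the same log2 scale was 2.12, 4.03 and 2.21. Members were thus weaker than the typical transcript outside 12 h and level with it at 12 h.

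**Figure D1:**
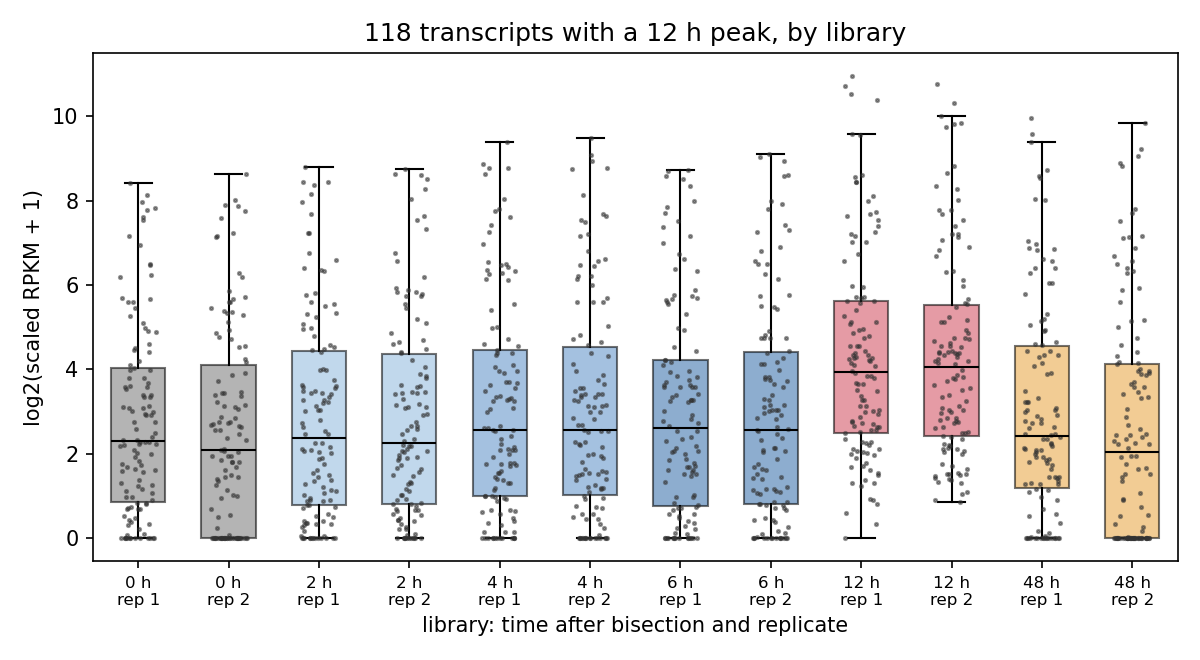
Levels of the 118 transcripts in each of the 12 libraries, as log2(scaled RPKM + 1) on the vertical axis. Each point is a transcript, the box spans the quartiles with the median as a line, and the whiskers reach to the last point within 1.5 box lengths; the medians of the 12 h libraries are 14.3 and 15.7 scaled RPKM, against 3.11 to 5.09 in the other libraries.

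The height of the peak varied. The margin of the 12 h mean over the next highest time had a median of 0.85 on the log2 scale and ran from 0.60 to 3.13, with quartiles of 0.72 and 1.12. It was at least 1 in 38 members and at least 2 in 5. In scaled RPKM, the 12 h mean was in the median 2.08 times that of the next highest time. The separation of single libraries was smaller: from the lower 12 h library to the highest of the 10 others the median gap was 0.42 on the log2 scale, with at least 1 in 10 members and under 0.1 in 14. The 3 members closest to the limit had margins of 0.602, 0.606 and 0.612, and the 3 transcripts just outside it had 0.599, 0.597 and 0.597. One of the former read 61.3 and 78.9 scaled RPKM at 12 h with 53.9 in the highest other library, and one of the latter 96.9 and 69.7 with 62.3, so the limit divides transcripts that look alike.

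By the choice of members, both 12 h libraries lay above all others, so this is no finding. Replicate 1 was the higher one in 59 members and replicate 2 in 59, and the 2 libraries lay a median of 0.36 apart on the log2 scale. In 8 members they were more than 1 apart. One member owes its place to replicate 2 alone, where it read 4.65 scaled RPKM, while replicate 1 was below 0.001 RPKM and only nominally above the other libraries. Replicates at 48 h were further apart than at the other times: their log2 difference had an SD of 1.26 over the members and 1.00 over the 14283 transcripts, against 0.59 and 0.73 at 12 h and 0.55 and 0.41 at 4 h.

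**Figure D2:**
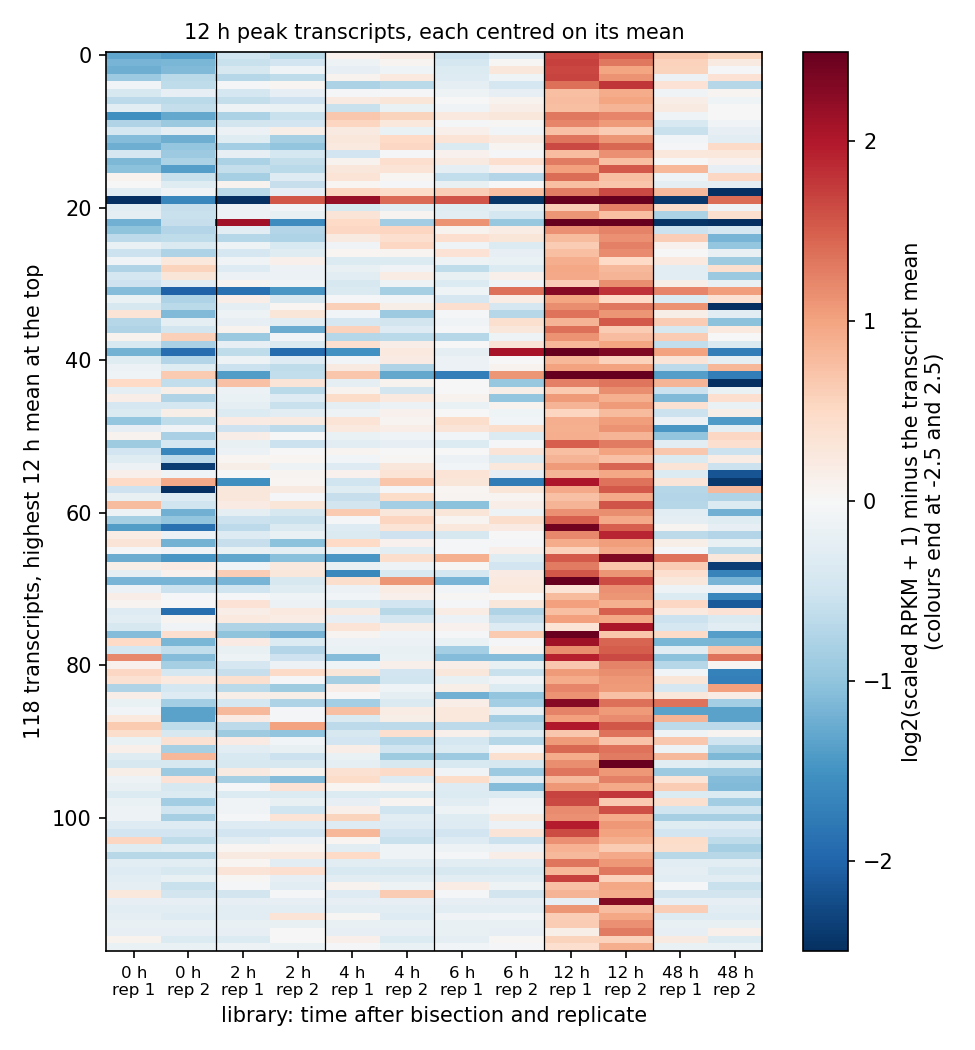
Each row is one of the 118 transcripts, ordered by 12 h mean, and each column a library; colour gives log2(scaled RPKM + 1) minus the transcript's mean over the 12 libraries, red above and blue below it. The red columns are the 12 h libraries by the choice of members; blue in the 0 h columns is most regular in the upper rows, and the 48 h columns differ from each other in many rows.

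Members spanned 3 ranges of level at 12 h, and the ranges had different courses outside the peak. The 24 members above 100 scaled RPKM at 12 h had median levels of 61.5, 78.0, 117, 114, 218 and 104 scaled RPKM, in the order of the 6 times. The 42 members between 10 and 100 had medians of 8.21, 9.11, 9.23, 10.4, 21.5 and 9.37 in the same order. The 52 members below 10 had medians of 0.588, 0.680, 0.832, 0.621, 3.85 and 0.709. The medians of the abundant members thus stood above that of 0 h both before and after the peak, while those of the weaker ranges stayed closer to it.

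The most abundant member was XM_002160828.2. It read 251 and 236 scaled RPKM at 0 h, 441 and 390 at 2 h, 670 and 712 at 4 h, 425 and 493 at 6 h, 1981 and 1743 at 12 h, and 990 and 915 at 48 h. Its course had a first high at 4 h, lower values at 6 h and the peak at 12 h, and the libraries of neighbouring times did not overlap at any step. For the steps to and from 12 h the choice of members fixed this. Of the transcripts tested, 29.7% also rose without overlap from 0 to 2 h, and 20.0% fell without overlap from 4 to 6 h. The mean of XM_002160828.2 went from 244 ± 10.4 at 0 h to 1862 ± 168 at 12 h (SD, n = 2).

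XM_002160108.1 was next in abundance, at 228 and 232 scaled RPKM at 0 h, 346 and 366 at 2 h, 467 and 539 at 4 h, 380 and 522 at 6 h, 1685 and 1281 at 12 h, and 767 and 598 at 48 h. Its 4 h and 6 h libraries overlapped, and its 48 h libraries lay above all 8 taken from 0 to 6 h. Whether the 2 transcripts come from related genes is not known here.

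The largest margins belonged to transcripts with uneven values before the peak. XM_002169214.2 read 3.67 and 6.20 scaled RPKM at 0 h, 44.6 and 2.61 at 2 h, 14.1 and 4.84 at 4 h, 22.2 and 4.56 at 6 h, 198 and 62.4 at 12 h, and 0.966 and 0.455 at 48 h. Its margin of 3.13 was the largest of the set, yet replicate 1 was several times above replicate 2 at 2, 4, 6 and 12 h, and the mean at 12 h was 130 ± 96.1 (SD, n = 2). XM_004208727.1 read 2.07 and 4.21 at 0 h, 0.254 and 1.16 at 2 h, 4.38 and 0.365 at 4 h, below 0.001 and 6.12 at 6 h, 27.9 and 19.6 at 12 h, and 0.279 and below 0.001 at 48 h. Its margin was 2.61. Both had lower values in each 48 h library than in either 0 h library.

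**Figure D3:**
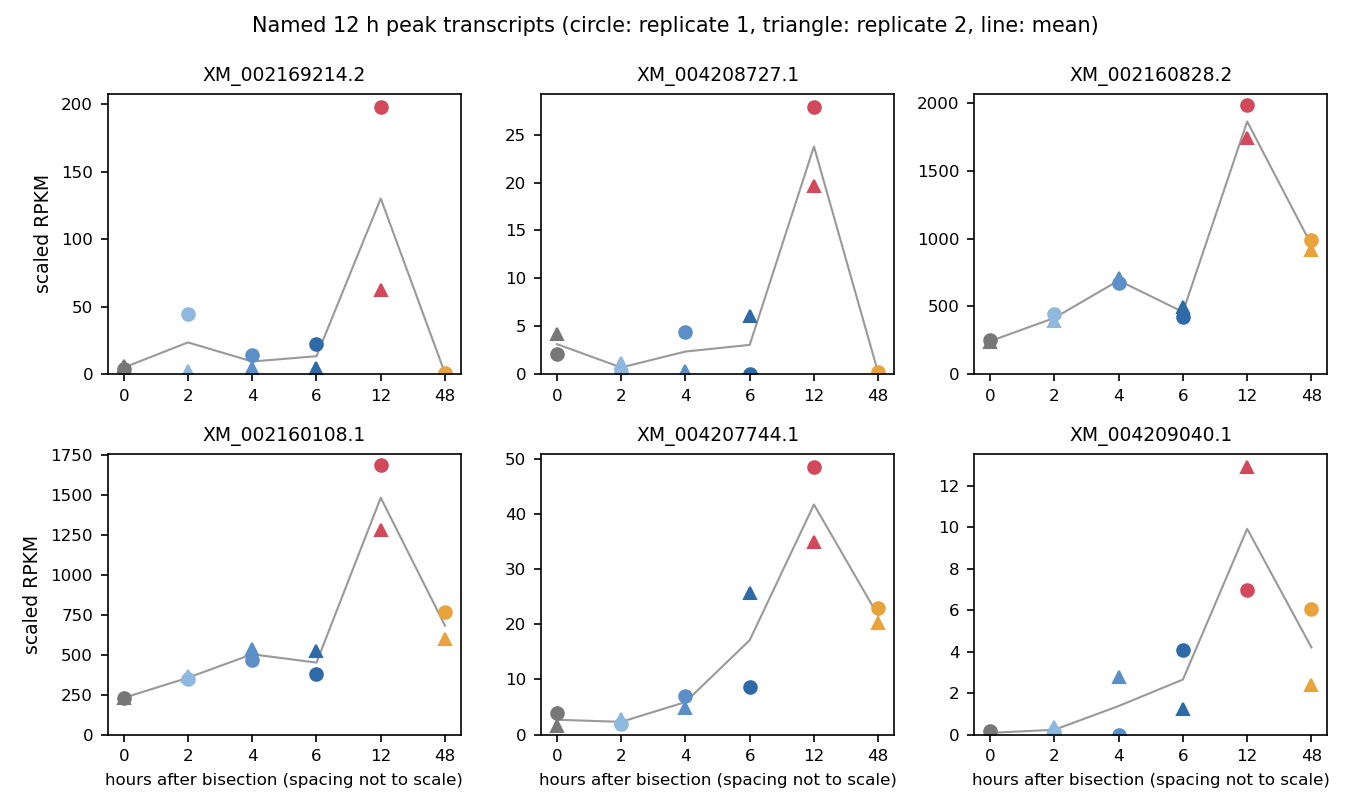
Scaled RPKM in each library for the 6 named transcripts, with a circle for replicate 1, a triangle for replicate 2 and a line through the means; the times on the horizontal axis are evenly spaced and each vertical axis starts at 0 with its own range. XM_002160828.2 and XM_002160108.1 stay above their 0 h level at 48 h, while XM_002169214.2 and XM_004208727.1 end below 1 scaled RPKM.

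At the other end, 15 members were below 1 scaled RPKM in all 10 libraries outside 12 h. Their 12 h means ran from 0.813 to 4.08, with a median of 1.80. The deposited values are RPKM without read numbers, so depth is unknown and no counting error can be given for such levels. By contrast 59 members were at 1 scaled RPKM or more in all 10 of those libraries. At least 1 scaled RPKM was read by 85 and 78 members in the 0 h libraries, 112 and 116 at 12 h, and 91 and 70 at 48 h.

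Changes were tested with limma on log2(scaled RPKM + 1) over 14283 transcripts, and a change was called at a log2 size of 1 or more with a Benjamini-Hochberg adjusted p below 0.05. Of the 118 members 112 could be tested; the other 6 had 12 h means of 0.813 to 2.32 scaled RPKM. A further 11 were tested only because they were expressed at 12 h. The scale of log2(scaled RPKM + 1) understates changes of weak transcripts. The spread behind each SE and p was pooled over all 12 libraries, although replicates at 48 h were further apart than at other times. An SE for 48 h against 0 h is therefore not the spread of those 4 libraries alone.

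The contrasts that involve 12 h were used by the choice of members and are given as a description. Against 0 h, 73 members were called higher at 12 h, where 8.42% of the transcripts tested were called higher. The median change over all 118 was 1.46 on the log2 scale. Against 6 h, 24 were called higher, with 1.05% of the transcripts tested called higher and a median change of 1.20. From 12 to 48 h, 44 were called lower, with 4.12% of the transcripts tested called lower and a median change of −1.32. In all, 17 members passed in each of the 3 contrasts and 38 in none of them. The 38 include the 6 members that could not be tested, and the shares over all transcripts were not counted. When limma was fitted to only the 4 libraries compared, 0 members passed for 12 against 6 h and 0 from 12 to 48 h. An unadjusted p below 0.05 was seen in 103 and 62 members, which the choice of members favours. Its share over all transcripts was not counted in these fits. Of all 14283 transcripts, 2 and 0 passed in either direction in these fits, in place of 345 and 1005 in the fit to all libraries. Weighting the libraries left 4 members that passed from 12 to 48 h. In the whole table it left 174 transcripts in either direction, in place of 1005 without weights.

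The contrasts between other times were not used to pick a direction, although every level outside 12 h had to stay below the peak. Tissue taken at 48 h was compared with tissue taken at the cut to ask where the members stood after the peak. Of the 118 members, 10 rose and 0 fell; 24 had an unadjusted p below 0.05 with a rise and 3 with a fall, against 20.6% and 19.9% of the transcripts tested. The rises made up 8.47% of the members, against 9.22% of the transcripts tested, and 8.25% of the transcripts tested fell. The share of rises was thus near the background. The rule bars a highest level at 0 h as well as at 48 h. A member below 1 scaled RPKM in both 0 h libraries also cannot fall by 1 on this scale. The 52 members below 10 scaled RPKM at 12 h had a median of 0.588 at 0 h.

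Both 48 h libraries lay above both 0 h libraries in 34 members, or 28.8%, against 28.4% of the transcripts tested. Both lay below in 11 members, or 9.32%, against 29.9%. The part of the rule, of low 0 h levels and of the 6 untested members in this share was not tested. The median change over the 118 was 0.07 on the log2 scale and ran from −1.82 to 2.68, and the median over the transcripts tested was −0.04. In 65 members the 48 h mean was within 0.5 of the 0 h mean on the log2 scale. It lay further above in 33 and further below in 20.

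These counts depended on single libraries of 48 h and of 0 h. Without 48 h replicate 1, 13 members rose and 10 fell, where 11.6% and 13.3% of the transcripts tested did. Without 48 h replicate 2, 16 members rose and 1 fell, where 9.34% and 8.18% did. Without 0 h replicate 2, 7 members rose and 1 fell, where 6.34% and 4.72% did. On the deposited scale, on which the median transcript lay at −0.39 at 48 h relative to 0 h, 7 members rose and 4 fell, and 755 transcripts rose and 2443 fell in the whole table, in place of 1317 and 1179. Weighting the libraries left 5 rises among the members and 4.97% in the whole table. Fitting the 4 libraries of the comparison alone left 3 among the members and 1.53% in the whole table.

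The 12 h means of the 10 members that rose from 0 to 48 h had a median of 186 scaled RPKM. They ran from 9.93 to 1862, and 7 of the 10 were among the 24 members above 100. The share of rises among all transcripts above 100 was not counted, so this is a description. The log2 changes of the 10 ran from 1.02 to 2.68. All 10 had also been called higher at 12 h than at 0 h, and 5 were called lower at 48 h than at 12 h. Both contrasts use the 12 h values that chose the members, so these counts are a description. XM_002160828.2 rose by 1.96 on the log2 scale (SE 0.14, limma adjusted p = 1.31e-04), and its adjusted p over 21 alternatives ran from 1.17e-04 to 0.0364. XM_002160108.1 rose by 1.55 (SE 0.20, limma adjusted p = 0.00116), with a range of 0.00103 to 0.0470. Both passed in all 21.

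The largest rise from 0 to 48 h among the members was that of XM_004207744.1. It read 3.85 and 1.54 scaled RPKM at 0 h, 1.84 and 2.77 at 2 h, 6.99 and 4.80 at 4 h, 8.62 and 25.6 at 6 h, 48.6 and 34.9 at 12 h, and 22.9 and 20.2 at 48 h. Its 4 h libraries already lay above both 0 h libraries, its 6 h libraries were wide apart, and its 48 h libraries fell between those of 6 h. The log2 change from 0 to 48 h was 2.68 (SE 0.48, limma adjusted p = 0.00426). It passed in 19 of 21 alternatives (0.00262 to 0.0757) and not with weights per library (0.0757) or with only the 4 libraries compared (0.0605).

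XM_004209040.1 followed, at 0.164 and below 0.001 scaled RPKM at 0 h, 0.119 and 0.345 at 2 h, below 0.001 and 2.76 at 4 h, 4.08 and 1.23 at 6 h, 6.95 and 12.9 at 12 h, and 6.04 and 2.37 at 48 h. It was near 0 at 0 and 2 h, where its replicates agree almost by construction, and its 6 h and 48 h libraries overlapped. The log2 change from 0 to 48 h was 2.17 (SE 0.66, limma adjusted p = 0.0387). It passed in 11 of 21 alternatives (0.0212 to 0.258). Leaving out either 0 h library ended the call (0.10 for replicate 1 and 0.147 for replicate 2), as did leaving out either 2 h library (0.0586 and 0.0587) or the first 48 h library (0.138). It also did not pass with no filter (0.0760), with a pseudocount of 5 (0.0613), with the replicate block (0.0547), with weights per library (0.258) or with only the 4 libraries compared (0.0910).

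The members with the largest margins did not pass between 0 and 48 h. The log2 change of XM_002169214.2 was −1.78 (SE 1.14, limma adjusted p = 0.276) and that of XM_004208727.1 was −1.82 (SE 0.89, limma adjusted p = 0.160). These SEs are several times those of XM_002160828.2 and XM_002160108.1.

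**Figure D4:**
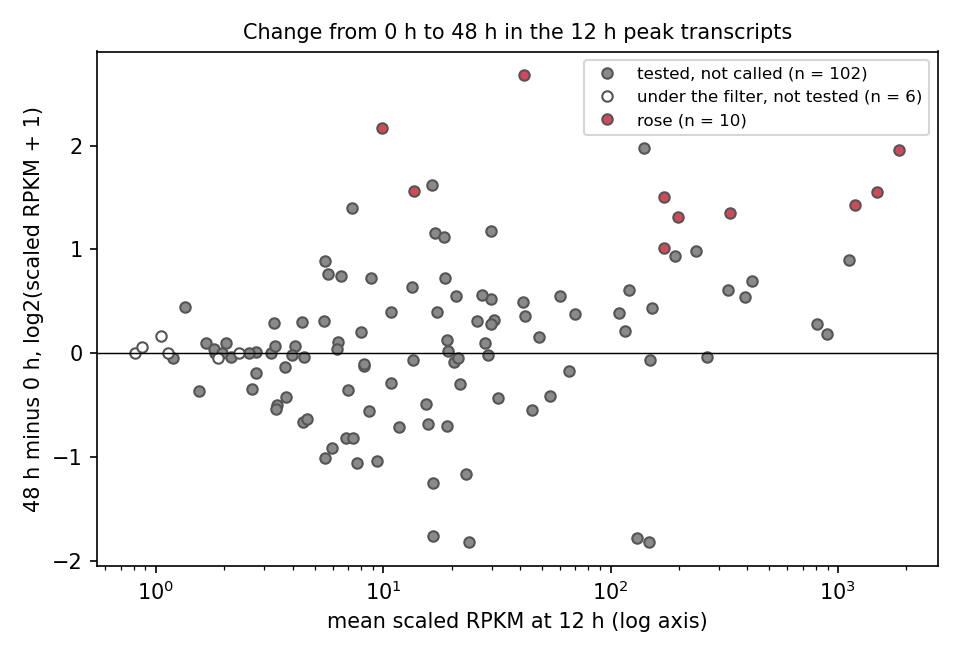
Mean scaled RPKM at 12 h on a log axis against the change from 0 to 48 h in log2(scaled RPKM + 1), one point per transcript. Red points are the 10 that rose, grey the 102 tested and not called, and white the 6 under the filter; 20 of the 24 points above 100 scaled RPKM lie above 0.

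Among the 24 members above 100 scaled RPKM at 12 h, 20 had a higher mean at 48 h than at 0 h, which is 83.3%, and the median change was 0.65 on the log2 scale. Among the 1641 transcripts tested with more than 100 scaled RPKM at 12 h, 68.1% were higher at 48 h and the median was 0.34. Of the members between 10 and 100, 24 of 42 were higher at 48 h, with a median of 0.14, and of those below 10, 23 of 52. These shares are a description and were not tested.

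The first hours asked whether the members already responded at 2 h. No member passed the limma test between 0 and 2 h, with 14 at an unadjusted p below 0.05 for a rise and 2 for a fall, against 8.77% and 5.51% of the transcripts tested. Few transcripts did in the whole table, 0.133% with a rise and 0.035% with a fall. Both 2 h libraries lay above both 0 h libraries in 36 members, or 30.5%, against 29.7% of the transcripts tested, and below in 13, or 11.0%, against 23.1%. These shares are over all 118 members, of which 6 could not be tested and 11 were tested only because of 12 h. The part of these and of low levels in the shares was not tested. The median change was 0.15 on the log2 scale, against 0.05. XM_002160828.2 had the lowest adjusted p of the members, 0.0731, with a log2 change of 0.76 (SE 0.14) by limma.

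Between 4 and 6 h the median member was level. The choice of members did not use the direction of this interval, but it kept both times below the peak and capped the step up to them. No member passed the limma test, with 2 at an unadjusted p below 0.05 for a rise and 6 for a fall, against 2.91% and 2.96% of the transcripts tested. Over all transcripts tested, 0.133% rose and 0.056% fell. Both 6 h libraries lay above both 4 h libraries in 14 members, or 11.9%, against 23.4% of the transcripts tested, and below in 22, or 18.6%, against 20.0%. As at 2 h, these shares include the members that could not be tested, and the part of low levels in them was not tested. The median change was −0.002, and 55 of 118 had a higher mean at 6 h. XM_002160828.2 again had the lowest adjusted p of the members, 0.205, with a log2 change of −0.59 (SE 0.14).

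Compared with 0 h, the median member lay 0.28 higher at 4 h and 0.18 higher at 6 h on the log2 scale, and 82 and 86 of 118 had a higher mean. Over the transcripts tested both medians were −0.03, and 47.9% and 48.2% had a higher mean. The rule caps the step up to 4 and 6 h, so these values are a description. The comparisons with 0 h share the 0 h libraries.

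Members differed in which time came second. The 4 h mean was second in 33 members. Next came the 48 h mean in 26, that of 2 h in 24, that of 6 h in 20 and that of 0 h in 15. The 33 with 4 h second were the most abundant of these subsets, with a median of 27.1 scaled RPKM at 12 h, and the medians of their log2 means, in the order of the 6 times, were 3.26, 3.33, 4.02, 3.76, 4.81 and 3.46. The 26 with 48 h second had a median of 23.4 scaled RPKM at 12 h and log2 medians of 2.65, 2.82, 3.04, 3.58, 4.60 and 3.72. The 24 with 2 h second and the 15 with 0 h second were weak, at medians of 6.90 and 5.98 scaled RPKM at 12 h. As many as 50 members had their lowest mean at 0 h, and another 30 had it at 48 h. The remainder comprised 19 for 2 h, 11 for 4 h and 8 for 6 h.

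The members' identifiers fell into both series of RefSeq predictions in the table. Those starting with XM_002 made up 46 of the 118, or 39.0%, against 53.2% of all predicted mRNAs, and the other 72 start with XM_004. The median 12 h level was 30.4 scaled RPKM in the former and 7.34 in the latter. The part of the lower level of the XM_004 series in the difference of shares was not tested.

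Peaks with the same margin and the same separation of libraries, without the limit on 4 and 6 h, were counted at each time. In the order of the 6 times there were 265, 129, 47, 191, 142 and 555 predicted mRNAs with such a peak. Over the transcripts tested, the log2 difference of the 2 replicates had an SD of 0.66, 0.46, 0.41, 0.44, 0.73 and 1.00 in the same order. The part of this spread in the counts was not tested.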

How the data were processed

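Strand-specific poly(A) RNA-seq libraries were read as single ends, per the labels' protocols. Bowtie 0.12.8 is named in the submitters' processing notes; not given in the sources used here are build, read assignment and filters. The authors deposited RPKM for 17353 transcripts, and the depth per library is unknown. Values of closely related transcripts are uncertain.

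Libraries were scaled to a median of 20 over 11050 predicted mRNAs (factors 0.701 to 0.937). Transcripts with at least 1 deposited RPKM in 2 libraries, 14283, were fitted as log2(scaled RPKM + 1) in limma 3.58.1 under R 4.3.3, with 1 mean per time, a variance trend, two-sided tests and adjustment over all transcripts tested. The procedure was tested on simulated data with the same spread at every time and with changes only in transcripts that were not weak. It therefore does not cover the wider replicate spread at 48 h or the weak members. The alternatives were pseudocounts, filters, scalings, margins, weights per library, a replicate block, fits of only the 4 libraries compared, and each library left out.

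The named transcripts are the 2 with the largest margins, the 2 with the highest 12 h means, and at most 2 called rises and 2 called falls in each contrast between other times. The members and lists were chosen with earlier results of these data known. Named lists could not be tested, since 1 identifier, Wnt3, matched a name.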

Additional observations from a re-analysis of the deposited data

How the results depend on the processing

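Alternatives gave 172 counts, 154 of them within a factor of 1.5 of the reported one and 18 beyond it. The 154 include all counts for 2 against 0 h and 6 against 4 h. Those were 0 throughout and had little room to move, since few transcripts passed there in the whole table. The number of members, 118, was 73 with a pseudocount of 5 (63 shared), 232 with a margin of 0.4, 38 with a margin of 1, and from 112 to 300 with 1 library left out; 300, the most the rule keeps, was reached without either 12 h library. Scaling over all rows, chosen after seeing the data, gave 117. For 48 h against 0 h, 10 members rose (5 with weights per library, 3 with only the 4 libraries compared, 7 to 16 with 1 library left out), and 0 fell (4 on the deposited scale, 0 to 10 with 1 library left out). Members called at 12 against 0 h were 73 (45 with a pseudocount of 5, 42 with only the 4 libraries compared), at 12 against 6 h 24 (0 with only the 4 libraries compared), and at 48 against 12 h 44 (27 with a pseudocount of 5, 4 with weights per library, 0 with only the 4 libraries compared). The cause of these moves was not tested. At 2 against 0 h and 6 against 4 h, 0 members passed in limma in all 21 alternatives. The changes from 0 to 48 h of the 6 named transcripts kept their direction in all 21 alternatives; directions of other members were not followed.

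With the replicate block 9 members rose and 0 fell from 0 to 48 h. Whether the replicate numbers pair the pools is not known from the sources used here. The log2 difference between replicates correlated across transcripts with r from −0.10 to 0.24 over 15 pairs of times. It was above 0.1 in 1 pair, that of 4 and 6 h. Without read numbers, depth sets no stated limit on weak members.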

Other observations

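Of the 364 predicted non-coding transcripts in the table, 6 met the same rule for a peak at 12 h. They are outside the set described above, and no gene name is paired with them.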
